A study of Mus musculus with 8 samples.

Results

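The cytosolic ribosomal protein genes were followed in the primary motor cortex (M1) after lentiviral delivery of a *Fezf2 shRNA* or a *non-silencing shRNA*. Members were the protein-coding genes with a small-subunit (*Rps*, *Rpsa*) or large-subunit (*Rpl*, *Rplp*) symbol, without the S6 kinase genes that share the prefix, and this gave 84 genes of the 38031 genes in the count table. Of these, 32 encode proteins of the small (40S) subunit and 52 encode proteins of the large (60S) subunit. A gene was tested when it had more than 8 CPM (counts scaled to the library total) in 4 or more libraries, and 79 of the 84 members passed, 31 of the 40S and 48 of the 60S subunit, among 9959 genes tested in all.

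All animals were male wild-type Swiss Webster mice injected into M1 at P21 to P25 with a lentivirus that carries an mCherry reporter and a short hairpin RNA under a Synapsin I promoter, which drives expression in neurons. The hairpin was either directed against *Fezf2*, a transcription factor of deep-layer projection neurons (4 libraries), or non-silencing (control, 4 libraries). Tissue was taken at P49 to P53, guided by mCherry, and total RNA was sequenced with 1 library per tissue sample, so that cells that took up no virus, glia and vessel cells were part of every sample. The 8 libraries held between 54684016 and 58003814 counts on genes.

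Cytosolic ribosomes translate nearly all cellular mRNA. Each holds 1 copy of most ribosomal proteins, and cells make these proteins in matched amounts. In mammals many of their mRNAs begin with a cytosine followed by a run of pyrimidines, the 5′ terminal oligopyrimidine tract, through which mTOR signaling and the protein LARP1 set how much of the mRNA is translated. In neurons ribosomes also occur in dendrites and axons, where local translation is part of plasticity.

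The start sites are shown because this pyrimidine run is the best known sequence that members share and that the choice of members did not use. A RefSeq promoter window (GRCm38.p6, 250 bases before to 50 bases after the annotated start) was matched by symbol to 64 of the 84 members. A cytosine at the annotated start was found in 32.8% of these 64 and in 16.3% of the 32851 windows in the table. A cytosine at the start followed by at least 4 pyrimidines was found in 18.8% of members and 2.5% of all windows. Such a run beginning within 5 bases of the start was counted in 31.2% (20 members) and 13.4%. Away from the annotated start, a run was counted only where no pyrimidine came just before its cytosine. Other tracts, which begin with a thymine or farther upstream, were left out of this count. Annotated starts can lie away from the start used in these cells. The RefSeq start nearest to that of the counted transcript was taken, with no limit on the distance. The counted transcript of *Rps15a* (minus strand) starts at 118115677, and those of *Rplp2* and *Rps15* (plus strand) start at 141447370 and 80292645. These positions lie outside the lines shown for these members, so a tract at the counted start can be missed. The lines below give 30 bases each, 15 before the annotated start and 15 from it on, with the counted pyrimidine run in capitals. The first 7 members have one, and the next 5, described below, have none by this rule. In *Rps24* a tract that begins with a thymine lies over the annotated start.
Rps6, chr4:86857353-86857382, minus strand: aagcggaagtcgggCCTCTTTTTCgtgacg
Rpl27a, chr7:109519180-109519209, plus strand: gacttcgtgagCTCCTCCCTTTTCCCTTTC
Rps18, chr17:33955651-33955680, minus strand: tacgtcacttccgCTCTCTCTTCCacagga
Rpl15, chr14:18270972-18271001, minus strand: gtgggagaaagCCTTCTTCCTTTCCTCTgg
Rplp2, chr7:141447636-141447665, plus strand: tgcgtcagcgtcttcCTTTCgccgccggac
Rpl13a, chr7:45128731-45128760, minus strand: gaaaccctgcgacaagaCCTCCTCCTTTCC
Rps15a, chr7:118116133-118116162, minus strand: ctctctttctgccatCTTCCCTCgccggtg
Rps3a1, chr3:86142654-86142683, minus strand: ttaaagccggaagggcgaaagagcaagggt
Rpsa, chr9:120127751-120127780, plus strand: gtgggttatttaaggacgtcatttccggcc
Rps15, chr10:80292416-80292445, plus strand: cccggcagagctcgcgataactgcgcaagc
Rps16, chr7:28350674-28350703, plus strand: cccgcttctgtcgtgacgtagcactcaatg
Rps24, chr14:24490663-24490692, plus strand: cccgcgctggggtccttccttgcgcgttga

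Among members tested with a promoter window, the 19 with a counted pyrimidine run had a median log2 fold change (*Fezf2 shRNA* over *non-silencing shRNA*) of -0.17. The 40 without a counted run had -0.13, and they include members such as *Rps24*, *Rpl7a* and *Rps9* with a tract that begins with a thymine. These medians are given as a description and do not separate members with and without a tract. The motif CCGGAAG, the site of ETS family factors such as GABP, was found on either strand in 39.1% of the 64 member windows and 8.9% of all windows. AAGATGGCG, a core of YY1 sites that can share its first 3 bases with the end of the ETS motif, was found in 6.2% and 1.4%, and the TATA box TATAAA in 9.4% and 13.6%. Members tested with CCGGAAG had a median log2 fold change of -0.14 (23 genes) and those without it -0.13 (36 genes). The 120 bases before the annotated start are given for 3 of the 4 members whose treatment groups did not overlap (below). The other, *Rpl8*, had no matched window. CCGGAAG or its reverse complement is in capitals. All 3 hold the motif, and a link between the motif and the log2 fold change was not tested.
Rps6, chr4:86857368-86857487, minus strand: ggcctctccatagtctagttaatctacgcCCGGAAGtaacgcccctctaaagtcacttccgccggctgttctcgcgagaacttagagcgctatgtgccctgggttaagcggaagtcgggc
Rps3a1, chr3:86142669-86142788, minus strand: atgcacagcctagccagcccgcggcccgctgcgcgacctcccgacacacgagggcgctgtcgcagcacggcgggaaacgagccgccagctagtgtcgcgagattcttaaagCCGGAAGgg
Rplp2, chr7:141447531-141447650, plus strand: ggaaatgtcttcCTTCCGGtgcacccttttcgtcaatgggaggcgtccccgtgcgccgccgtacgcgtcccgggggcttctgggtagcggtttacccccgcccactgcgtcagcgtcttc

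The targeted gene was lower in treated tissue. *Fezf2* had 723 ± 35.4 normalized counts (SD, n = 4) in controls and 591 ± 22.1 (SD, n = 4) with *Fezf2 shRNA*, a log2 fold change of -0.29 (SE 0.0781), and the groups did not overlap (two-sided exact permutation p = 0.0286, the smallest that 4 against 4 samples can give). It did not pass the threshold across genes (edgeR adjusted p = 0.0824). Normalized counts are scaled to the mean effective library size.

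Certain libraries stood apart for the members before any comparison of treatments. Control replicate 3 was the highest of the 8 libraries for 54 of the 79 members tested, and *Fezf2 shRNA* replicates 4 and 3 were the lowest for 33 and 25. *Fezf2 shRNA* replicate 2 was above the mean of the 8 libraries for 61 of the 79, and control replicate 2 for 26. Hence the groups overlapped for the members as a whole. Members took 0.486%, 0.456%, 0.553% and 0.507% of all counts in control replicates 1 to 4, and 0.452%, 0.48%, 0.44% and 0.422% in *Fezf2 shRNA* replicates 1 to 4. The control mean was 0.5005% ± 0.0408 (SD, n = 4) and the *Fezf2 shRNA* mean was 0.4485% ± 0.0244 (SD, n = 4), a ratio of 0.896. Both subunits showed about the same ratio, 0.891 for 40S and 0.899 for 60S genes.

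**Figure D1:**
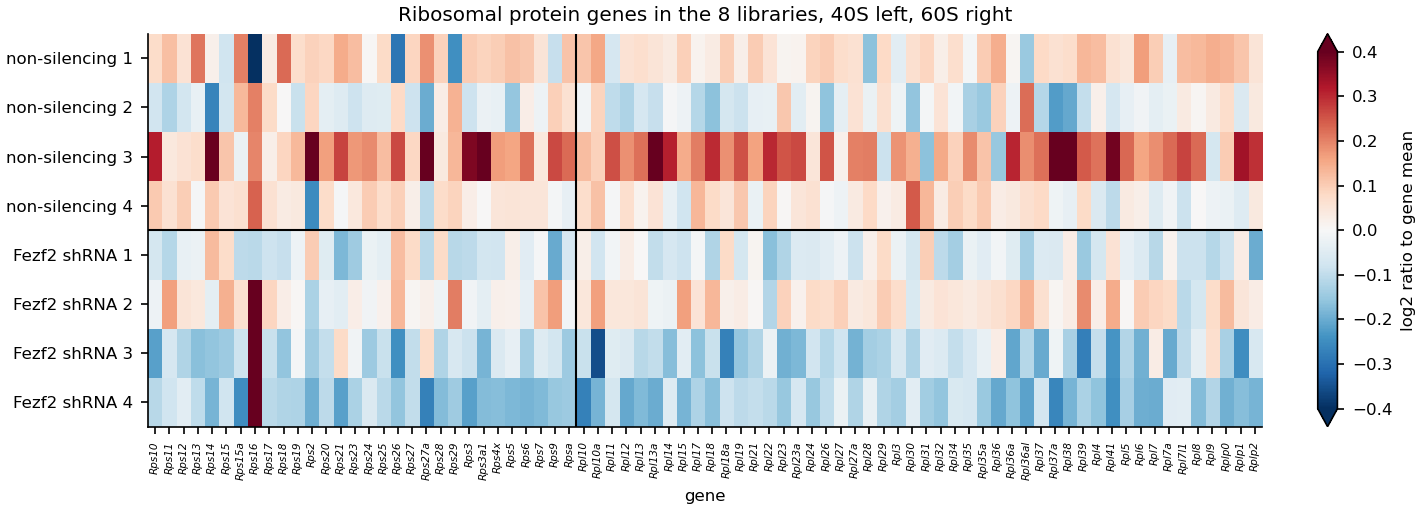
Heatmap of 78 of the members tested (columns, 40S left of the vertical line and 60S right) in the 8 libraries (rows, controls above the horizontal line). Colour gives the log2 ratio of the normalized count to the gene's own mean over the libraries, with ratios beyond 0.4 in either direction drawn at the end of the scale. Control replicate 3 is red in most columns, *Fezf2 shRNA* replicates 3 and 4 are blue in most columns, and *Rps16* stands out through its low count in control replicate 1.

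No cytosolic ribosomal protein gene was called between treatments. With the edgeR quasi-likelihood test, 0 of 79 members had both an adjusted p up to 0.05 and a log2 fold change beyond 0.2 in either direction, where 2.09% of all genes tested did, 0.131% lower and 1.96% higher with *Fezf2 shRNA*. DESeq2 also called 0 members, where it called 7.55% of all genes tested. At an unadjusted p under 0.05, 16 members were lower and 0 higher by edgeR, 20.3% of the members tested against a background of 7.73% lower, 11.8% higher and 19.6% in either direction over all genes tested, while by DESeq2 15 members were under 0.05 against a background of 20.4% in either direction.

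The members nevertheless leaned one way by a small amount. The log2 fold change was below 0 in 78 of 79 members against 56.6% of all genes tested. Its median was -0.13 (-0.13 for 40S and -0.14 for 60S genes) against -0.03 for all genes tested, and the middle of the distribution was narrow, with quartiles at -0.17 and -0.08. Members at -0.2 or lower included *Rps3a1*, *Rps3*, *Rps10*, *Rps6*, *Rpl13a*, *Rpl10a*, *Rpl22* and *Rplp2*. *Rpl13a*, among the hosts of small nucleolar RNAs described below, was at -0.22 (SE 0.096) and, without control replicate 3, at -0.10, and *Rpl10a* was at -0.21 without that library. The standard error of a member's log2 fold change had a median of 0.0794. The 95% interval of the log2 fold change covered 0 in 63 of 79 members, and it reached below -0.4 in 14 of the 79.

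**Figure D2:**
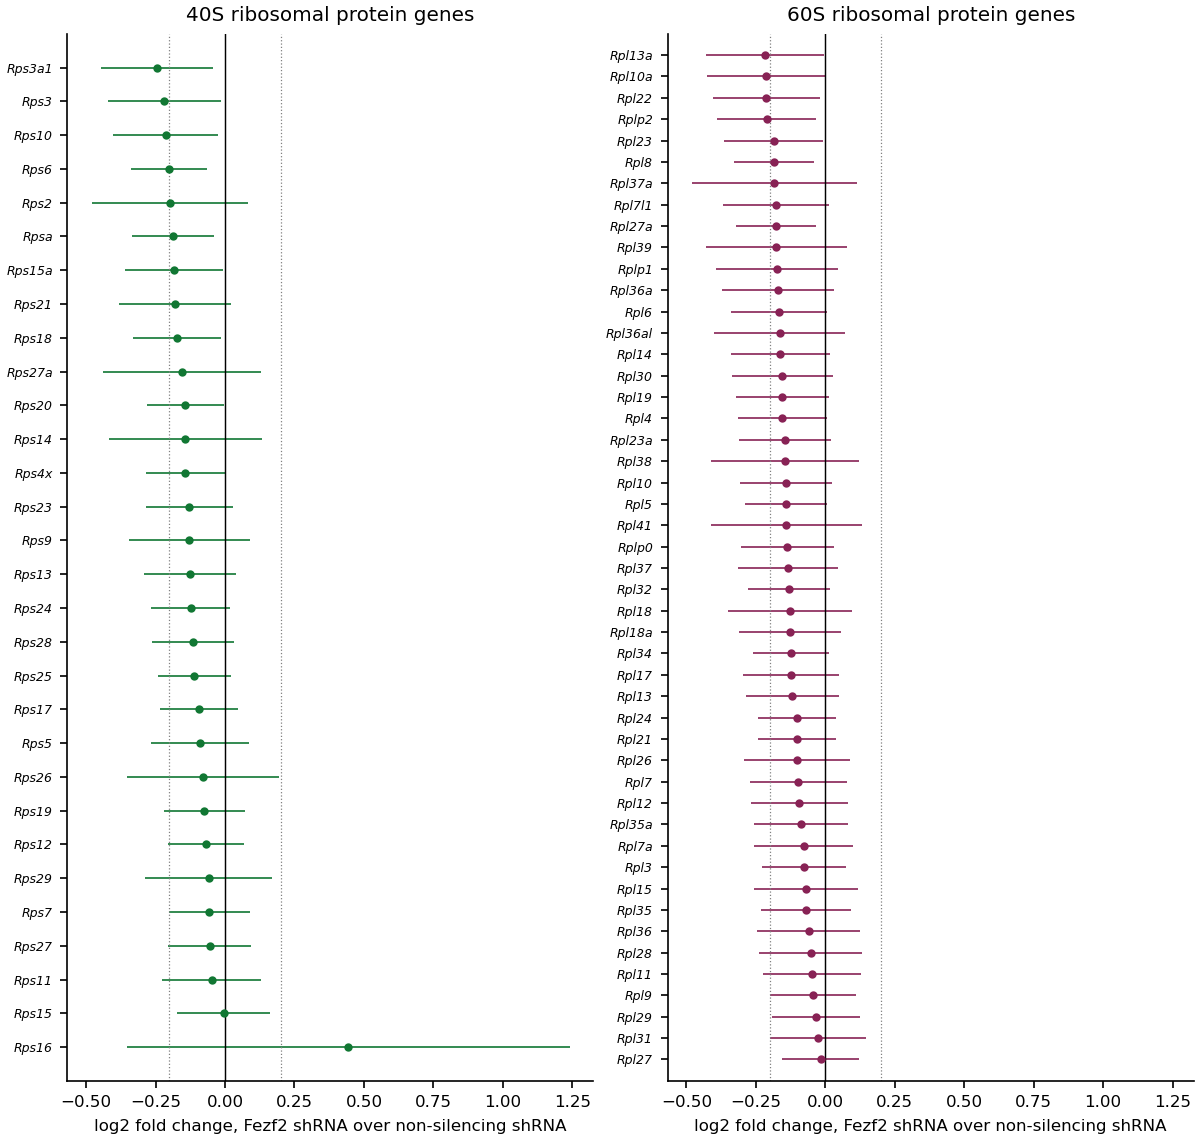
Log2 fold change of 78 of the members tested (points) with its 95% interval from the edgeR fit (bars), 40S genes left and 60S genes right, and dotted lines at 0.2 in either direction. All points but that of *Rps16* lie below 0, and the lowest, *Rps3a1*, is at -0.25.

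Genes of similar genomic span leaned the same way. Members are short genes, with spans of 828 to 8750 bp for those tested and a median of 2905 bp, and counts were taken over the whole span of a transcript. Other genes under 10 kb had a median log2 fold change of -0.12 (82.8% of 2074 genes below 0), and other protein-coding genes within the span range of the members had -0.12 (85.1% of 1413 genes below 0, and 17.8% of the 1413 lower at an unadjusted p under 0.05). Genes over 300 kb had a median of 0.29. When each library was given an offset that removes the trend with span, the median of the members was -0.03, 51 of 79 were below 0, 0 were at an unadjusted p under 0.05 against 10.8% of all genes tested, and the lowest adjusted p was 0.54. In that fit 0 members and 0.0201% of all genes were past the threshold. All genes tested then had a median of -0.01, with 54.7% below 0.

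**Figure D3:**
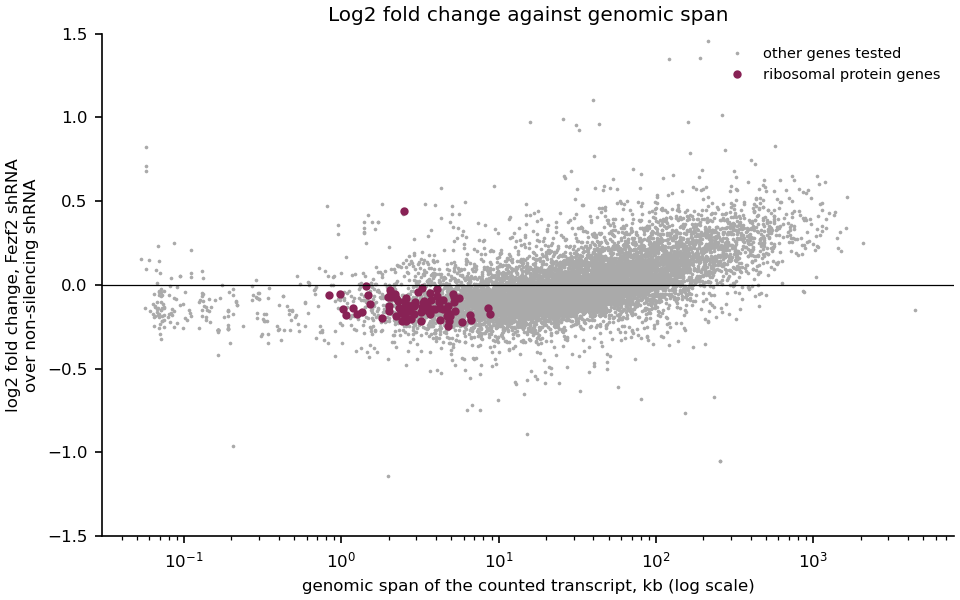
Log2 fold change against the genomic span of the counted transcript (log scale) for the members (large points) and the other genes tested (small points, without the 10 that lie beyond 1.5 in either direction). The members sit inside the cloud of short genes, which lies mostly below 0, and long genes lie mostly above 0.

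Within libraries the members followed short genes in sign in 7 of the 8. The median log2 ratio of members to the mean of the libraries was 0.07, -0.03, 0.19 and 0.04 in control replicates 1 to 4 and -0.05, 0.04, -0.10 and -0.15 in *Fezf2 shRNA* replicates 1 to 4. Other genes under 10 kb gave 0.04, 0.04, 0.08 and 0.06 in controls and -0.05, 0.02, -0.09 and -0.10 with *Fezf2 shRNA*. Control replicate 2 was the library in which the signs differed, and control replicate 3 was the one in which the members stood farthest above the short genes. Without control replicate 3 the median log2 fold change of the members was -0.07, with 74 of 79 below 0, 0 past the threshold against 1.32% of all genes tested, and 2 at an unadjusted p under 0.05 against 16.2%. Other genes under 10 kb had a median of -0.09 in that fit.

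**Figure D4:**
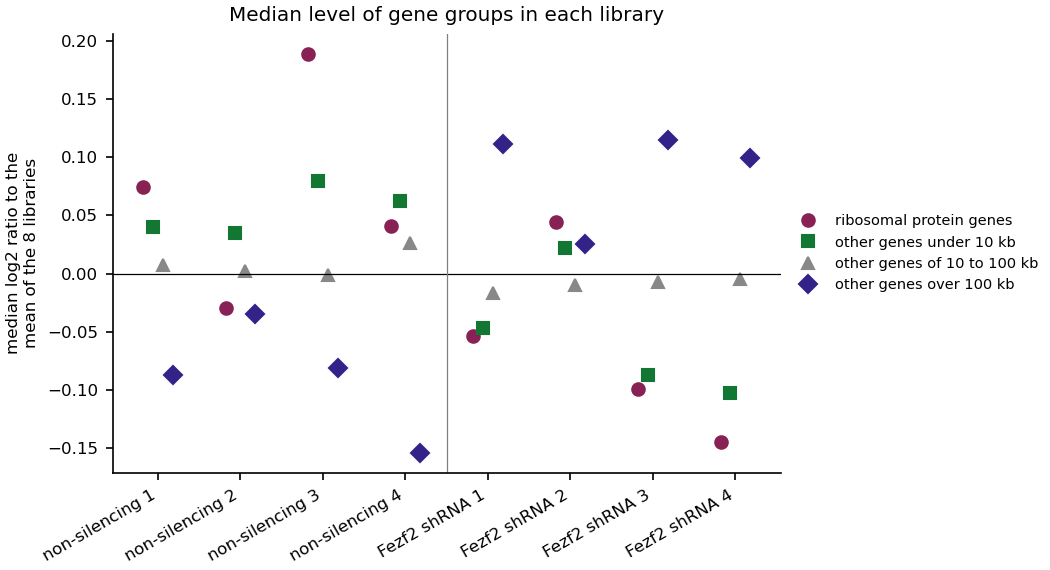
Median log2 ratio to the mean of the 8 libraries for the members (circles) and for other genes under 10 kb (squares), of 10 to 100 kb (triangles) and over 100 kb (diamonds), 1 position per library. Members and short genes are on the same side of 0 in every library but control replicate 2, and genes over 100 kb are below 0 in the 4 controls and above 0 in the 4 *Fezf2 shRNA* libraries.

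Marker genes were summed for the cell types the tissue could hold. Summed CPM of 8 oligodendrocyte genes ranged from 1121 to 2179 in controls and from 836 to 1392 with *Fezf2 shRNA*, with all 8 genes below 0 (median log2 fold change -0.53), 0 past the threshold and overlapping groups. Summed CPM of 10 neuron genes was 4282 to 4607 in controls and 4379 to 4599 with *Fezf2 shRNA*, and of 7 astrocyte genes 1145 to 1281 and 1117 to 1208. No defining marker in these lists was at 0. The T and B cell list did not overlap (10.07 to 12.36 against 3.469 to 9.099 summed CPM), with 1 of its 4 genes tested. The other lists, for oligodendrocyte precursors, microglia, endothelial cells, meninges, choroid plexus and red blood cells, overlapped between groups. The part of these differences in the member values was not tested, and in tissue samples fewer cells of a type and less RNA per cell cannot be told apart.

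*Rps6* had the lowest p of the members. It encodes the small-subunit protein that S6 kinase phosphorylates downstream of mTOR, and it is counted over 2753 bp of chromosome 4 (86854660 to 86857412, minus strand, 5 exons). Its normalized counts were 5717, 5407, 6178 and 5486 in control replicates 1 to 4 and 5139, 5182, 4825 and 4665 in *Fezf2 shRNA* replicates 1 to 4. Every treated sample was below every control. The means were 5697 ± 346 and 4953 ± 249 (SD, n = 4 each), with a log2 fold change of -0.20 (SE 0.0617, 95% interval -0.34 to -0.07, edgeR adjusted p = 0.112, two-sided exact permutation p = 0.0286). With the span offset it was -0.10, and without control replicate 3 it was -0.15.

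In 3 further members the groups did not overlap, again with lower counts under *Fezf2 shRNA*. With *Rps6* these were 4 members, 5.06% of those tested against a background of 4.41%, and 0 members against a background of 7.41% had all treated samples above all controls. Among the 1413 other protein-coding genes within the span range of the members, 8.42% had all treated samples below all controls. In 4 of these 1413 genes all treated samples were above all controls. *Rps3a1*, whose protein sits at the mRNA exit side of the small subunit, had 6331, 5863, 7882 and 5960 normalized counts in controls and 5660, 5788, 5235 and 5275 with *Fezf2 shRNA*. Its log2 fold change of -0.25 (SE 0.0912, edgeR adjusted p = 0.182) was the lowest of the members and was -0.13 without control replicate 3, the highest sample. *Rpl8*, a large-subunit protein near the peptidyl transferase center, had 4283, 3938, 4579 and 3921 in controls and 3694, 3732, 3823 and 3474 with *Fezf2 shRNA*. The highest treated sample lay close under the lowest control, and the log2 fold change was -0.18 (SE 0.0654, edgeR adjusted p = 0.166).

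The third was *Rplp2*, a gene of the P stalk, the flexible arm of the large subunit that recruits the translational GTPases. It had 1655, 1641, 1956 and 1642 normalized counts in controls and 1393, 1632, 1530 and 1404 with *Fezf2 shRNA*, with a log2 fold change of -0.21 (SE 0.0809, edgeR adjusted p = 0.195). The gap between the groups was narrow, 1641 against 1632, and the log2 fold change was -0.14 without control replicate 3. Its partners overlapped between groups. *Rplp0*, the base of the stalk, had a log2 fold change of -0.14 (SE 0.0752, edgeR adjusted p = 0.326) and *Rplp1* had -0.17 (SE 0.0996, edgeR adjusted p = 0.344).

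*Rpsa* and *Rpl27a* complete the 5 members with the smallest p, and in both the groups overlapped. *Rpsa*, which encodes the small-subunit protein also known as the laminin receptor, had 7948, 7655, 8590 and 7181 normalized counts in controls and 7002, 7288, 6639 and 6640 with *Fezf2 shRNA* (log2 fold change -0.19, SE 0.0662, edgeR adjusted p = 0.164). *Rpl27a*, a large-subunit protein, had 4707, 4696, 5196 and 4626 in controls and 4254, 4629, 3963 and 4156 with *Fezf2 shRNA* (log2 fold change -0.18, SE 0.0645, edgeR adjusted p = 0.172). In each of them 1 treated sample, replicate 2, exceeded the lowest control.

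**Figure D5:**
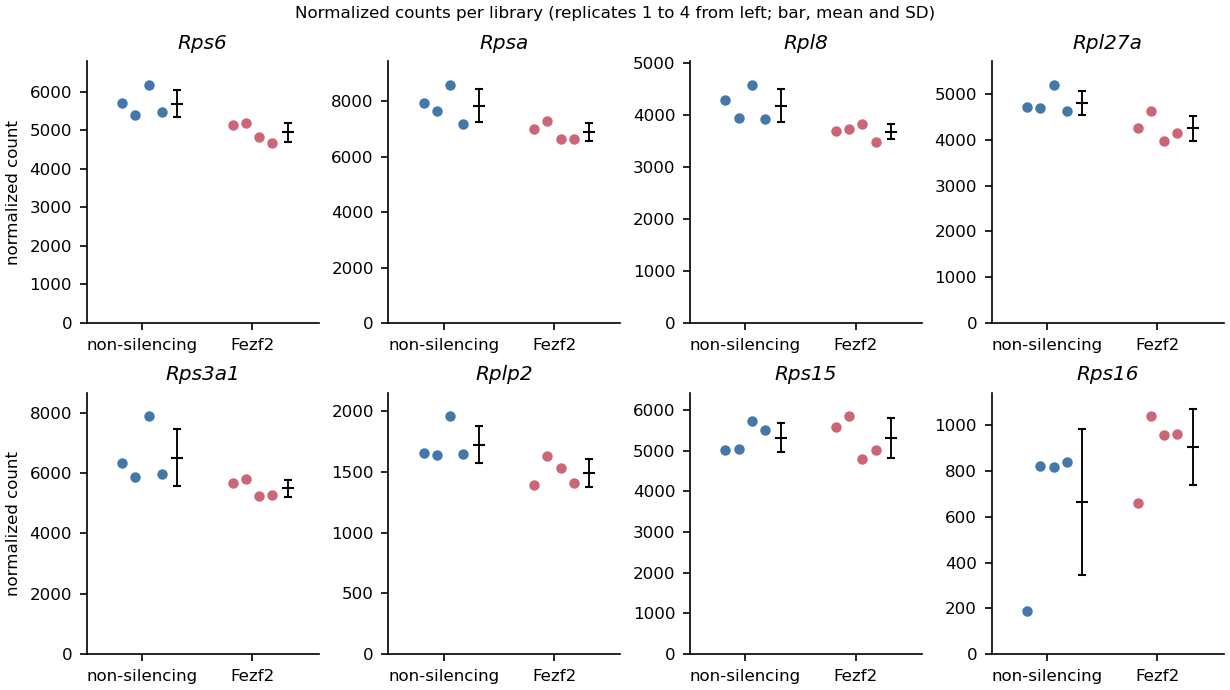
Normalized counts of 8 members in each library (replicates 1 to 4 from left to right in each group), with the mean and SD of the 4 libraries beside them. *Rps6*, *Rpl8*, *Rps3a1* and *Rplp2* do not overlap between treatments, *Rpsa* and *Rpl27a* overlap through replicate 2 of the *Fezf2 shRNA* group, *Rps15* has almost the same mean in both groups, and *Rps16* has 1 low control.

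*Rps16*, a small-subunit protein gene, was the only member tested with a log2 fold change above 0. It had 187.9, 820.6, 816.3 and 841.3 normalized counts in control replicates 1 to 4 and 662, 1040, 959.4 and 962.3 in *Fezf2 shRNA* replicates 1 to 4. Control replicate 1 was far below every other library, and the log2 fold change of 0.44 (SE 0.361, 95% interval -0.35 to 1.24, edgeR adjusted p = 0.508) was 0.13 in the fit without that library. Within its interval (chromosome 7, 28350652 to 28353155, plus strand) the small nucleolar RNA (snoRNA) gene *AF357399* was low in the same library as well, with 28 counts against 99 to 182 in the other 3 controls.

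At the other end of the range, members with almost equal means were also found. *Rps15*, a small-subunit protein gene, had 5015, 5033, 5717 and 5501 normalized counts in controls and 5569, 5840, 4784 and 5007 with *Fezf2 shRNA*. The groups overlapped fully, and the log2 fold change was -0.01 (95% interval -0.17 to 0.16, edgeR adjusted p = 0.984), which leaves room for a change of that size in either direction.

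Levels differed widely between members. Per kb of exonic bases the most abundant in controls was *Rps24* (15260 normalized counts per kb), followed by *Rplp1* (11860), *Rps2* (11750), *Rps15* (9295) and *Rpl23a* (9292). These 5 had log2 fold changes from -0.20 (*Rps2*, SE 0.1271) to -0.01 (*Rps15*), with edgeR adjusted p from 0.297 to 0.984. Without control replicate 3 the log2 fold change was -0.06 for *Rps2*, -0.07 for *Rplp1*, *Rps24* and *Rpl23a*, and 0.04 for *Rps15*. These levels can include other reads in the interval, since only a median of 26.7% of a member's counted interval is exonic. The share of reads outside exons was not tested. In *Rps24* the exonic part of the interval is 9.85%, and in *Rpl23a* the counts on snoRNA genes came to 53.5% of the gene's counts.

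*Rpl5* and *Rpl11* form the 5S particle with the 5S RNA and bind MDM2 when ribosome assembly is disturbed. *Rpl5* had a log2 fold change of -0.14 (SE 0.067, edgeR adjusted p = 0.273) and *Rpl11* of -0.05 (SE 0.0804, edgeR adjusted p = 0.767). Without control replicate 3 *Rpl5* was at -0.08 and *Rpl11* at 0.05, and in that library *Rpl11* had 4061 normalized counts against 3168 to 3389 in the other controls. Of the p53 response list that follows free ribosomal proteins, 6 of 10 genes were tested, and 1 was called, *Ccng1*, a cyclin-like p53 target, which fell by 0.36 on the log2 scale (SE 0.0691, edgeR adjusted p = 0.0309). The median of the 6 was 0.0. *Mdm2* itself, the ubiquitin ligase, had -0.17 (SE 0.0823, edgeR adjusted p = 0.277).

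The 4 X-linked members, present in 1 copy in male cells, had a median log2 fold change of -0.16, and the 75 autosomal members tested had -0.13. *Rpl10*, a large-subunit protein near the catalytic center, had -0.14 (SE 0.0747). *Rpl36a* had -0.17 (SE 0.0912), *Rpl39*, which lines the exit tunnel, had -0.18 (SE 0.1155), and *Rps4x* had -0.14 (SE 0.0641), with edgeR adjusted p from 0.251 to 0.409. Without control replicate 3 *Rpl36a* was at -0.08 and *Rpl39* at -0.12. With the counts on its snoRNA gene taken off, 36.6% of its counts and possibly including reads of the host, *Rpl39* was at -0.31.

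Paralogs with restricted expression were near or at 0. *Rpl10l*, known from the testis, had 0 counts in all 8 libraries. *Rpl39l*, another testis paralog, had 4.02 normalized counts in *Fezf2 shRNA* replicate 2 and 0 in the other 7 libraries. *Rpl3l*, the paralog of striated muscle, had 4.918, 24.77, 1.967 and 5.836 in controls and 5.046, 0, 2.986 and 0 with *Fezf2 shRNA*. Its main form *Rpl3* had means of 9095 and 8624 (log2 fold change -0.08, SE 0.0691, edgeR adjusted p = 0.552, and -0.02 without control replicate 3).

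More widely expressed paralogs were present at lower levels than their main forms per exonic kb. *Rpl22l1* had 646.5 normalized counts per kb in controls against 1897 for *Rpl22*, *Rps27l* 266.4 against 6675 for *Rps27*, and *Rpl36al* 1744 against 3235 for *Rpl36a*. *Rpl22l1* and *Rps27l* did not pass the CPM minimum. With a minimum of 1 CPM their log2 fold changes were -0.09 (SE 0.186) and -0.03 (SE 0.193), with edgeR adjusted p of 0.844 and 0.961. Among those tested, *Rpl22* had -0.21 (SE 0.0877, edgeR adjusted p = 0.222), *Rps27* -0.06 (SE 0.0675), *Rpl36al* -0.16 (SE 0.107) and *Rpl7l1*, the relative of *Rpl7*, -0.18 (SE 0.0857), the last 3 with edgeR adjusted p of 0.677, 0.408 and 0.277. Reads of near-identical copies can be split between genes by the aligner, so these levels are uncertain. Without control replicate 3 *Rpl22* was at -0.13, *Rps27* at -0.03 and *Rpl7l1* at -0.10.

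Many members are hosts of snoRNAs, which guide the modification of ribosomal RNA and are cut from introns. The counted intervals of 30 members hold 58 annotated snoRNA genes. The counts on these came to between 0.9% (*Rpl6*) and 77.4% (*Rps12*) of the host's counts, with a median of 25.8%. Such counts can include reads also counted elsewhere in the host, as in *Rpl23* below, so they are not shares of snoRNA alone. Hosts with over 50% included *Rps12*, *Rpl23a* (53.5%) and *Rpl13a* (53%), and the share was over 25% in 15 hosts. Over all hosts the share was 25.3% to 27.4% in the 8 libraries. Hosts had a median log2 fold change of -0.14 and the 49 other members tested had -0.12. With all counts on snoRNA genes taken off, which can also take off reads of the host, the median of all members tested was -0.14, and 77 were below 0. At an unadjusted edgeR p under 0.05 there were 14 members, where 1946 of 9960 genes tested were. In that fit 0 members were called, and the share of all genes called is not given here.

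In 1 host the counts on a snoRNA gene differed between libraries by far more than those of the host. The 95 bp of *Gm27326*, inside *Rpl23* (chromosome 11, 97780182 to 97780276, minus strand), held 6, 1937, 2058 and 1836 counts in control replicates 1 to 4 and 7, 1, 6 and 1641 in *Fezf2 shRNA* replicates 1 to 4. *Rpl23* as a whole had 3574, 3641, 4217 and 3597 counts in the same controls and 3180, 3698, 3065 and 3070 with *Fezf2 shRNA*. Libraries with few and with many counts on *Gm27326* occurred in both groups, 1 and 3 among the controls and 3 and 1 with *Fezf2 shRNA*. How spliced reads were counted is not given in the sources used here. In control replicate 2, separate intervals of *Rpl23* on either side of *Gm27326* held 2491 and 1005 counts. With the 1937 on *Gm27326* these add up to more than the 3641 of the whole gene. Some reads on *Gm27326* were thus also counted on another part of the host. *Rpl23*, chosen here after its values were seen, had a log2 fold change of -0.19 (SE 0.0803, edgeR adjusted p = 0.236) with all reads and -0.12 without control replicate 3. With the counts on both its snoRNA genes taken off it was 0.51 (edgeR adjusted p = 0.456), a value that also takes off reads of the host.

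Other genes of the translation machinery gave few calls. *Rack1* and *Fau*, which encode cytosolic ribosome components outside the naming rule, had log2 fold changes of -0.16 (SE 0.0702) and -0.15 (SE 0.089), with edgeR adjusted p of 0.234 and 0.368. Of 78 mitochondrial ribosomal protein genes 50 were tested, with a median of -0.12 and 1 called, *Mrpl10*, which fell by 0.36 on the log2 scale (SE 0.08, edgeR adjusted p = 0.0482). Of 58 initiation and elongation factor genes 50 were tested and 0 called, with a median of -0.08. *Eef1a1*, which delivers aminoacyl-tRNA and has a known pyrimidine tract, had -0.18 (SE 0.0769, edgeR adjusted p = 0.238), and *Eef2*, the translocation factor with such a tract, had -0.04 (SE 0.0627, edgeR adjusted p = 0.73).

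The 17 other mRNAs known for a pyrimidine tract had a median of -0.08 with 0 called. Of 33 ribosome biogenesis genes 24 were tested, with a median of -0.12 and 1 called, *Efl1*, the GTPase that releases eIF6 from the large subunit, which rose by 0.29 on the log2 scale (SE 0.0615, edgeR adjusted p = 0.0402). Of 15 genes of mTOR and S6 kinase signaling 11 were tested and 0 called, with a median of 0.02. At an unadjusted edgeR p under 0.05, 2 of the 11 were lower and 3 higher, against 7.73% and 11.8% of all genes tested. The lower were *Akt1s1* (-0.24) and *Mlst8* (-0.235), and the higher were *Rps6ka3* (0.354, edgeR adjusted p = 0.0648), *Rps6ka2* (0.299) and *Rptor* (0.167). With the span offset 1 of the 11 was under 0.05, against 10.8% of all genes tested. The kinase genes *Mtor* and *Rps6kb1* had -0.11 (SE 0.1002) and 0.04 (SE 0.063), and *Larp1*, which encodes the protein that binds pyrimidine tracts, had 0.02 (SE 0.0705), with edgeR adjusted p of 0.542, 0.736 and 0.901.

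Housekeeping genes with other functions were set beside the members. Of 90 nuclear genes of oxidative phosphorylation 79 were tested, with a median span of 7078 bp, a median log2 fold change of -0.13, 71 below 0 and 0 called. Of 18 proteasome core genes 15 were tested, with a median span of 11513 bp, a median log2 fold change of -0.11, 14 below 0 and 0 called. With the span offset the median log2 fold changes were -0.04 for both lists. The calls of *Ccng1*, *Mrpl10* and *Efl1* were lost with the span offset (edgeR adjusted p of 0.263, 0.283 and 0.344) and when no minimum was set on low counts (0.0634, 0.0947 and 0.106), and they were lost when replicate 1, 3 or 4 of either group was left out. *Mrpl10* and *Efl1* were also lost with library totals or a minimum of 1 CPM, and *Mrpl10* with the widest transcript (0.0504) and without *Fezf2 shRNA* replicate 2. Without control replicate 1 0 genes of the whole table were called.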

How the data were processed

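Total RNA of 8 M1 samples was sequenced. The deposited table gives raw counts for each Ensembl transcript. The authors aligned reads with TopHat2 2.1.1 (mm10, GRCm38) and counted them over whole genomic intervals with BEDTools multiCov 2.26.0. How multi-mapping reads and strand were handled is not given in the sources used here. The authors' own DESeq2 comparison, also deposited (base means, log2 fold changes, standard errors, Wald statistics, p-values), was not used.

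Of 94647 transcripts, 91320 were found in GENCODE M21 (GRCm38), and the 3327 others held 1.82% of counts. Each gene was represented by its transcript with the lowest Ensembl number. Genes above 8 CPM in 4 or more libraries were tested with edgeR 4.0.16 (TMM, quasi-likelihood test, no covariate, Benjamini-Hochberg adjustment over all genes tested) in R 4.3.3. SE is that of the fit. With 54684016 to 58003814 counts per library and 191 or more counts for each member tested, the spread between replicates limits precision. Each library was treated as 1 animal. The edgeR p-values set the difference between groups against the spread between these samples, moderated across genes. The permutation p-values rank the observed split of the samples among all splits.

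Members and lists were chosen with earlier results of these data known. Named members are up to 5 with the smallest p in each direction (5 lower and the 1 higher), the 5 with the most reads per exonic kb, the P stalk, 5S particle and X-linked genes, *Rps6*, and the paralogs (*Rps4l* was not analysed here). Others are given where a count or range is named. Some genes are not reported here and were left out of the 2 figures that name genes by row or column, but remain in the counts and medians. The alternatives were DESeq2 1.42.0 (size factors or Wald test), library totals, TMM leaving out the 10 most counted genes, a minimum of 1 CPM or none, the replicate number as a block, a loess offset (span 0.3) for genomic span, both together, the widest transcript, each library left out and, added after the data were seen, counts on snoRNA genes taken off. The fits were tested on simulated data. Python 3.11.15 with pandas 2.3.3, scipy 1.17.1 and matplotlib 3.10.9 was used for the rest.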

Additional observations from a re-analysis of the deposited data

Results flagged for a closer look

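Sets of 4 libraries were examined for a single library far from the other 3. In 6 of the 62 sets the gap divided by the range was above Dixon's 95% critical value. Chance alone gives about 1 in 20 for independent sets. These sets come from the same libraries and are not independent, and a set at 0 throughout, as in *Rpl10l*, cannot be flagged. The number flagged is therefore not compared with that share. Of the 6 flagged sets, 3 are members in which control replicate 3 was high, *Rplp2* (0.955, 1956 normalized counts against 1641 to 1655), *Rpl27a* (0.857, 5196 against 4626 to 4707) and *Rpl36a* (0.83, 1814 against 1448 to 1510). In *Rps16* control replicate 1 was low (0.962, 187.9 against 816.3 to 841.3). In *Rpl3l* control replicate 2 was high (0.83, 24.77 against 1.967 to 5.836), and in *Rpl39l* *Fezf2 shRNA* replicate 2 was the only library of its group with counts (1.0, 4.02 against 0), both far below the CPM minimum. For *Rpl39l* any count would give 1.0, since the other 3 libraries are at 0, so the share that chance gives does not apply to it.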

How the results depend on the processing

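No alternative called a member, and 0 of the 24 named members tested were called under any of them. The median log2 fold change of the members stayed below 0 in every alternative. It was -0.027 with the span offset and -0.024 with the replicate block and span offset together. Leaving out 1 library at a time gave values between -0.17 (control replicate 2 left out) and -0.07 (control replicate 3 left out). Members at an unadjusted edgeR p under 0.05 then numbered from 2 to 29 of 79. The 2 were found without control replicate 3, where 1596 of 9845 genes tested were under 0.05. The 29 were found without *Fezf2 shRNA* replicate 2, where 2250 of 9882 genes tested were. Of 456 values of named members under alternatives 17 had the other sign, 8 of them with a span offset and the others in *Rps15* or *Rpl11*. Over all genes 208 were called. The number was 84 with a minimum of 1 CPM, 103 with none, 752 with the DESeq2 Wald test, 2 with the span offset, 2 with block and offset, and 0 (without control replicate 1) to 368 (without control replicate 2) with libraries left out. Deviations of same-numbered samples had correlations of 0.307, 0.093, -0.133 and 0.167, with 4 of 8 samples closest to their own number. These values do not settle whether the numbers pair samples, and the main fit did not pair them. With the replicate block 90 genes and 0 members were called, the members' median was -0.13, and *Ccng1*, *Mrpl10* and *Efl1* were not called (edgeR adjusted p of 0.058, 0.0609 and 0.0869). The cause of these moves was not tested. The median standard error of a member, 0.0794, sets the size of change that could be detected at this replicate spread.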

Other observations

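Some processed pseudogenes of ribosomal protein genes varied between libraries of the same treatment. The table holds 238 pseudogenes named after a cytosolic ribosomal protein, which together took 0.92% as many counts as the members, and 6 had over 100 counts in some library. *Rps2-ps9* had 281, 12, 4 and 246 counts in control replicates 1 to 4 and 5, 300, 319 and 226 in *Fezf2 shRNA* replicates 1 to 4. *Rpl23a-ps2* had 6, 14, 8 and 195 in controls and 5, 4, 9 and 139 with *Fezf2 shRNA*. *Rpl14-ps1* had 249, 249, 279 and 541 in controls and 228, 464, 459 and 213 with *Fezf2 shRNA*. *Rps23-ps1* had 621 to 776 counts in controls and 594 to 758 with *Fezf2 shRNA*, and *Rps19-ps6* had 84 to 119 and 78 to 147. These genes were chosen after their values were seen. *Rps2-ps13* had 110, 132, 214 and 47 counts in controls and 116, 125, 108 and 77 with *Fezf2 shRNA*, and was highest in control replicate 3 and lowest in control replicate 4, as *Rps2* was. *Rps2* had 12705, 12641, 16092 and 9993 normalized counts in controls and 12784, 10908, 10790 and 10388 with *Fezf2 shRNA*, and *Rpl23a* had 4798 to 5926 and 4362 to 4999.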
